A study of Mus musculus with 109 samples.

Results

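The genes described here encode the constitutive proteasome: its core particle, its regulatory particle, its activators and its assembly chaperones. They were chosen by name alone, as symbols that begin with Psma, Psmb, Psmc, Psmd, Psme, Psmf or Psmg and a number. The interferon-inducible subunits Psmb8, Psmb9 and Psmb10 and pseudogene names were left out of the rule. It found 45 genes in each of 4 expression tables, which held 12498, 12798, 13390 and 11549 genes, and all 45 passed the filter on low values wherever genes were tested. By role they were 7 alpha-ring subunits, 4 beta-ring subunits without a catalytic site, 3 catalytic subunits, 6 ATPases, 11 other subunits of the regulatory particle, 3 chaperones of the regulatory particle, 6 activators or inhibitors, 4 chaperones of the core and Psmc3ip. Psmc3ip matches by name alone, as it encodes a meiotic recombination factor that binds Psmc3. The other 44 encode the proteasome or proteins that act on it, and they include 7 assembly chaperones, an inhibitor and the interferon-inducible PA28 genes, so not all are constitutive subunits.

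The proteasome degrades proteins tagged with ubiquitin. A cylindrical core of alpha and beta rings holds the protease sites, and a regulatory cap binds ubiquitin, removes it, unfolds the substrate with a ring of ATPases and feeds it into the core. The activator PA28, made of Psme1 and Psme2, can replace the cap, and in immune cells interferons induce Psmb8, Psmb9 and Psmb10, which take the places of Psmb5, Psmb6 and Psmb7. Subunit genes are known to be raised together by the transcription factor Nfe2l1 (Nrf1) when proteasome activity falls short.

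The study measured microglia, the resident macrophages of the brain, sorted on CD45 and CD11b from mouse brain homogenates, in 89 RNA libraries of 3' tags (MARS-seq). Mice were untreated or received 2.5 mg/kg lipopolysaccharide (LPS, a bacterial cell-wall component) into the peritoneum and were sampled at 6, 24 or 48 h or on day 7. Controls were IL10Rafl/fl with 6 libraries before LPS and 6, 4, 6 and 4 libraries at the 4 times. Mutants were CX3CR1-CreER:IL10Rafl/fl, lacking the interleukin-10 receptor where the Cx3cr1-driven, tamoxifen-inducible Cre is active, with 9 libraries before LPS and 7, 5 and 5 libraries at 6, 24 and 48 h. Doubly floxed controls were IL10Rafl/fl:TNFfl/fl (6, 5 and 6 libraries untreated, at 6 h and at 48 h). Double mutants were CX3CR1-CreER:IL10Rafl/fl:TNFfl/fl (5, 6 and 4). C57BL/6 wild-type mice gave 4 untreated libraries. All of the controls other than C57BL/6 carry the floxed Il10ra alleles too. The labels give no age, and they do not say that every library is a separate mouse, so p-values measure the spread between these libraries.

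Sequence upstream of these genes was available for 38 of the 45 from RefSeq (build GRCm38.p6), as 250 bases before to 50 after the annotated start. The motif TGACNNNGC, the core of the antioxidant response element that Nfe2l1 and Nfe2l2 bind, was found on either strand in 6 of the 38 (15.8%) and in 14% of the windows of all 27025 genes. The 6 were Psmb5, Psmb6, Psmc6, Psmd12, Psmd9 and Psme4. The core of the interferon-stimulated response element, TTTC and TTTC with any 2 bases between, was found in 5 of 38 (13.2%) against 3.99% of all, in Psmb3, Psmd4, Psmd9, Psme1 and Psmg4. The motif CCGGAAG, an ETS-factor core, was found in 15 of 38 (39.5%) against 9.93% of all. No test was made, and a match is a description of the letters only. A set of 4 windows is shown with the match in capitals, because these genes carry results below: the catalytic Psmb5 (chr14:54617946-54618245, minus strand) and Psmb6 (chr11:70525107-70525406, plus strand), the lid subunit Psmd12 (chr11:107479278-107479577, plus strand) and the PA28 subunit Psme1 (chr14:55578244-55578543, plus strand). Capitals mark the TGACNNNGC match, on the opposite strand in Psmd12, and the match of the interferon-stimulated core in Psme1.
Psmb5: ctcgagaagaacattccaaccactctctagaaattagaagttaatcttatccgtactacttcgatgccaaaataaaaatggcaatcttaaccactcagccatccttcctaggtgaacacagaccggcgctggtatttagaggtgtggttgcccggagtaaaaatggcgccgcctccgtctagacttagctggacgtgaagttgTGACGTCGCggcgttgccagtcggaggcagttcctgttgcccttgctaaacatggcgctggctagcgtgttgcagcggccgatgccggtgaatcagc
Psmb6: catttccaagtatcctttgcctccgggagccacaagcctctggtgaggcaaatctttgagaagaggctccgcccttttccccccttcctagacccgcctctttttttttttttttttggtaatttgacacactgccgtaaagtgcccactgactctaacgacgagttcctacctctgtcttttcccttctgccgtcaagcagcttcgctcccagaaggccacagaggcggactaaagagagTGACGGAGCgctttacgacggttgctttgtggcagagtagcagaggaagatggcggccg
Psmd12: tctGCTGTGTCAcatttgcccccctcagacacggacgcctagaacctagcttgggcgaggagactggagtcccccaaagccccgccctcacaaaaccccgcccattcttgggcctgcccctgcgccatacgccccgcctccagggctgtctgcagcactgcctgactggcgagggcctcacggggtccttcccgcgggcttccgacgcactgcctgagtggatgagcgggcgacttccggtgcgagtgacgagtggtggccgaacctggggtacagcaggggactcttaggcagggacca
Psme1: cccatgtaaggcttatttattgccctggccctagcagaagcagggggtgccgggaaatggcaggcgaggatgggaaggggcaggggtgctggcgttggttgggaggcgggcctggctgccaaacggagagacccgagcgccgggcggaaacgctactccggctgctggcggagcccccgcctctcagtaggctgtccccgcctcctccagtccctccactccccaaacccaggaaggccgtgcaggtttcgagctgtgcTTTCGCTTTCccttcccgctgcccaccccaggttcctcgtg
Counted from the annotated start, the first base of the match lay at -47 in Psmb5, -9 in Psmb6, -247 in Psmd12 and 9 in Psme1. The 45 genes lay on 16 chromosomes, and Psme1 and Psme2, on chromosome 14 with 5913 bases between them, were the only pair within 100 kb.

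Values are the authors' normalised reads per gene and library, comparable within a table only, and depth ran from 540642 to 2489084 reads per library. Il10ra was lower in every mutant library, at 15.9 to 123.6 in Il10ra mutants against 268 to 745 in their controls, and at 7.14 to 76.4 in double mutants against 237 to 533 in doubly floxed controls. Tnf at 6 h was 1.43 to 31.1 in double mutants and 172 to 603 in doubly floxed controls. The 8 microglia markers (P2ry12, Tmem119 and others) were present in each table. A 48 h library labelled as a doubly floxed control carries the name of a double mutant and was left out of every comparison. Untreated double mutant library 4 has the word mistake in its column name but labels without conflict, and its Il10ra value of 24.0 lay among those of the other double mutants, so it was kept. A mitochondrial share of reads under 0.3% set 4 libraries apart: control untreated 1 (0.195%), control 6 h 1 (0.0511%), control 6 h 3 (0.247%) and double mutant untreated 1 (0.0948%). Of the 45 genes, 17, 14, 5 and 10 had their group's lowest value in these libraries, and results that turn on them are given with and without them.

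The share of all reads that fell on the 45 genes was higher at 6 h after LPS than before it in each genotype. It ran from 0.415% to 0.471% over the 30 untreated libraries of the 5 genotypes and from 0.530% to 0.695% over the 24 libraries at 6 h, so the ranges did not overlap. In controls the lowest, median and highest shares were 0.435%, 0.452% and 0.471% untreated and 0.591%, 0.634% and 0.664% at 6 h. They were 0.516%, 0.586% and 0.684% at 24 h, 0.424%, 0.513% and 0.568% at 48 h and 0.376%, 0.389% and 0.455% on day 7. Control libraries at 48 h thus straddled the untreated range, and those of day 7 lay within or below it. In Il10ra mutants the median went from 0.445% untreated to 0.612% at 6 h, 0.688% at 24 h and 0.694% at 48 h, where the 5 libraries ran from 0.632% to 0.815%. All mutant libraries at 48 h lay above all control libraries at 48 h. Doubly floxed controls had medians of 0.461%, 0.634% and 0.473%, and double mutants of 0.457%, 0.636% and 0.505%, untreated, at 6 h and at 48 h. Without the PA28 genes Psme1 and Psme2 the medians at 48 h were 0.424% in controls and 0.560% in Il10ra mutants. In libraries of sorted cells, fewer cells of a type and less RNA per cell cannot be told apart.

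**Figure D1:**
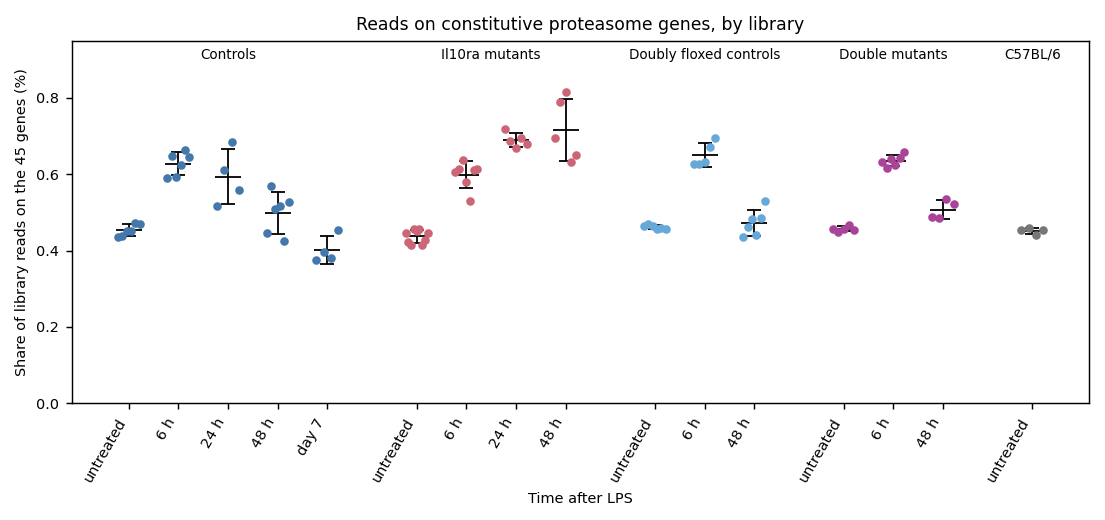
Share of each library's reads that fell on the 45 constitutive proteasome genes (vertical axis, percent), by genotype and time after LPS; points are libraries and black bars mean ± SD. The 24 libraries at 6 h lie between 0.530% and 0.695%, above the 30 untreated libraries, and the 5 Il10ra mutant libraries at 48 h lie between 0.632% and 0.815%.

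The first question was how the genes changed over time in control microglia. At 6 h, 18 of 45 were called higher and 1 lower than untreated (limma on log2 of value plus 1, Benjamini-Hochberg adjusted p under 0.05). Over all 11103 genes tested, 20.4% were called higher and 21.1% lower. The median log2 fold change was 0.42 over the 45 genes and -0.05 over all genes, and 41 of the 45 were above 0. With the experiment term, fold changes at 6 h and at 24 h rest, within the untreated group, on libraries 1 to 3. Untreated libraries 4 to 6 came from an experiment without 6 h or 24 h libraries, though their values are in the printed ranges. In the regulatory particle 8 of 11 non-ATPase subunits and 3 of 6 ATPases were called higher. In the core, 3 of 4 beta-ring subunits without a catalytic site were called, 1 of 3 catalytic subunits and 0 of 7 alpha-ring subunits (median 0.25). Among activators Psme1, Psme2 and Psme3 were called, and 0 of 4 core chaperones were. Leaving out the control libraries of low mitochondrial share (untreated 1, and 1 and 3 at 6 h) gave 16 higher and 1 lower. By role these were 5 of 11 non-ATPase subunits, 2 of 6 ATPases, 1 of 4 other beta-ring subunits, 2 of 3 catalytic subunits, 2 of 7 alpha-ring subunits (median 0.43) and 1 of 4 core chaperones. In that fit library 2 was the only 6 h library that shared an experiment with untreated ones. Libraries 4 to 6 at 6 h were tied in through 24 h library 4. Its calls thus lean on few libraries, and no share of all genes is given beside them. Control 6 h library 1 held the lowest 6 h value of Psma1, Psma3, Psma4, Psma5, Psma6 and Psma7, and no test was made of one role against another. The 8 microglia markers summed to 38702 to 40428 in untreated controls and to 20021 to 23293 at 6 h, 16196 to 24156 at 24 h and 24517 to 30311 at 48 h, below the untreated range at each. The neutrophil markers summed to 7.72 to 875 untreated and 256 to 1699 at 6 h. The part of either in the changes was not tested.

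The 4 called genes with the largest change were Psme2, Psmd3, Psme3 and Psmc4. Psme2, a PA28 subunit, went from 192, 251 and 343 (lowest, median and highest normalised reads of 6 untreated libraries) to 400.0, 498 and 626 at 6 h (log2 fold change 1.24 ± 0.19, adjusted p 4.07e-06). All 6 libraries at 6 h lay above all untreated ones. Psmd3, a lid subunit, went from 106.8, 124.1 and 151 to 206, 242 and 309 (1.19 ± 0.19, adjusted p 9.3e-06). Psme3, which forms the nuclear activator PA28 gamma, went from 36.0, 51.6 and 75.1 to 105, 149 and 152 (1.15 ± 0.19, adjusted p 1.59e-05). Psmc4, an ATPase of the cap, went from 72.9, 91.6 and 105 to 165, 197 and 211 (1.12 ± 0.16, adjusted p 2.66e-06). For these 3 genes too the groups did not overlap. Psmd10, known as gankyrin, a chaperone of the ATPase ring, was the gene called lower. It had 24.5, 30.3 and 35.03 untreated and 12.3, 19.7 and 25.3 at 6 h (-0.76 ± 0.25, adjusted p 0.017), and the ranges overlapped at one end.

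The 3 catalytic subunits and PA28 are the genes with inducible counterparts or interferon-driven expression. Psmb6, the caspase-like subunit, had 189, 221 and 293 untreated and 253, 320.4 and 426 at 6 h (0.64 ± 0.16, adjusted p 0.00217). It then had 303, 368, 255 and 267 in libraries 1 to 4 at 24 h, 202, 244 and 274 at 48 h, and 219, 221, 211 and 241 on day 7. The 6 h values were the highest as a group but overlapped with the untreated ones. Psmb5, the chymotrypsin-like subunit, had 49.8, 66.4 and 76.5 untreated and 58.2, 131, 55.7, 125, 155 and 109.05 in libraries 1 to 6 at 6 h (0.58 ± 0.25, adjusted p 0.0589). Libraries 1 and 3, those of low mitochondrial share, were the low ones at 6 h, and without 1 of them the adjusted p was 0.0192 or 0.0146. The counts tests called it (adjusted p 0.0417 by edgeR and 0.0333 by DESeq2). Without all of the control libraries of low share the change was 1.15 (adjusted p 0.00131). There library 2, at 131, was the only 6 h library that shared an experiment with untreated ones, so the value leans on it. At 24 h Psmb5 had 81.4, 90.8, 105.5 and 101.99, all above the untreated range, and was called (0.66 ± 0.25, adjusted p 0.0423). That call was lost without the experiment term (adjusted p 0.0582), within the shared experiment (adjusted p 0.052) and without untreated library 1 or 2 or 24 h library 1, 2 or 3 (adjusted p 0.0644 to 0.118). It was not called at 48 h (-0.12 ± 0.22, adjusted p 0.759) or on day 7 (0.20 ± 0.20, adjusted p 0.723). Psmb7, the trypsin-like subunit, had 44.6, 62.2 and 78.0 untreated and 42.5, 67.6 and 75.0 at 6 h (0.12 ± 0.24, adjusted p 0.73), ranges that overlapped. It was not called at 24 h (0.50 ± 0.24, adjusted p 0.126; 0.0494 without 24 h library 4), at 48 h (0.18 ± 0.22, adjusted p 0.612) or on day 7 (0.07 ± 0.20, adjusted p 0.919). Psme1, the partner of Psme2, went from 411, 469 and 518 to 608, 788 and 1086 (0.94 ± 0.17, adjusted p 4.55e-05), with no overlap. At 24 h it had 759, 1122, 711 and 736 (0.89 ± 0.17, adjusted p 0.000187), again above the untreated range, and on day 7 it was not called (0.08 ± 0.14, adjusted p 0.862). The ATPase Psmc6 moved with the low-share libraries too, from -0.63 ± 0.45 (adjusted p 0.269) to 0.25 (adjusted p 0.596) without them. That fit likewise leans on 6 h library 2.

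At 24 h 13 of the 45 genes were called higher and 1 lower in controls, where 14.2% of all genes were called higher and 15% lower. The median log2 fold change was 0.40, against 0.01 over all genes. Psmb3, a beta-ring subunit, had 75.1, 87.8 and 122.03 untreated and 216, 255, 159 and 205 in libraries 1 to 4 at 24 h (1.07 ± 0.20, adjusted p 0.000125), so the groups did not overlap. Psmd3 had 265, 329, 178 and 177 (1.01 ± 0.19, adjusted p 0.000173) and Psme2 418, 544, 365 and 349.8 (0.93 ± 0.19, adjusted p 0.000357). Library 2 was the highest of the 4 in each of these genes, and all 4 libraries lay above the untreated ones. Psmd10 had 16.4, 18.2, 11.2 and 18.4 (-0.94 ± 0.25, adjusted p 0.00562), below every untreated library. Within the experiment that held both groups (3 against 3 libraries) 4 genes were called higher, and the Psmd10 call was lost there (-0.95, adjusted p 0.0805). The share of all genes called in that smaller fit is not given. Without untreated library 2, or without 24 h library 2, 9 of the 45 were called.

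At 48 h 6 of the 45 genes were called higher and 0 lower in controls, against 11.1% and 7.9% of all genes, with a median of 0.18. The 6 were Psmb4, Psmc4, Psmd2, Psmd8, Psme1 and Psmg4. All control 48 h libraries came from an experiment that held untreated libraries 4 to 6 but not 1 to 3. Fold changes of controls at 48 h thus rest, within the untreated group, on libraries 4 to 6, though ranges over all 6 are printed. Psmb4, a beta-ring subunit, had 251, 294 and 354 untreated and 404, 430.3 and 515 at 48 h, with no overlap (0.66 ± 0.15, adjusted p 0.00238). Psmd2, a scaffold of the base of the cap, had 29.7, 35.7 and 64.7 untreated and 46.8, 59.0 and 81.2 at 48 h (0.96 ± 0.21, adjusted p 0.00116). Untreated library 1 alone reached into the 48 h range, and the fold change does not rest on it. Psmc4 had 112.5, 135 and 155 at 48 h, above its untreated range (0.57 ± 0.15, adjusted p 0.00617). The core chaperone Psmg4 went from 27.5, 36.0 and 49.8 to 44.6, 54.4 and 64.1, with overlap (0.68 ± 0.21, adjusted p 0.0232), and Psme1 had 586, 712 and 838 (0.56 ± 0.15, adjusted p 0.00897). Without untreated library 4 the count fell to 2, and the adjusted p was 0.0953 for Psmc4, 0.0622 for Psmg4 and 0.0555 for Psme1. Without untreated library 5 that of Psmg4 was 0.128.

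On day 7 0 of the 45 genes were called higher and 4 lower in controls, where 3.14% of all genes were called higher and 0.955% lower. Psma2, an alpha-ring subunit, had 69.9, 101.8 and 105 untreated and 41.9, 51.0, 60.1 and 68.9 on day 7, all below the untreated libraries (-0.77 ± 0.17, adjusted p 0.0053). Psma5 of the same ring had 40.3, 57.3 and 84.7 untreated and 40.4, 31.8, 36.3 and 39.8 on day 7 (-0.63 ± 0.14, adjusted p 0.00608). Psmd11, a lid subunit, had 48.6, 67.0 and 92.7 untreated and 45.8, 42.2, 47.5 and 39.8 on day 7 (-0.61 ± 0.15, adjusted p 0.0117). Without the experiment term the adjusted p of Psmd11 was 0.0806. In Psma5 the highest day 7 library reached the lowest untreated one, and in Psmd11 the groups did not overlap. Psme2 had 193, 159.8, 161 and 185 (-0.53 ± 0.15, adjusted p 0.0446), and that call was lost without untreated library 2, 4, 5 or 6 or without any single day 7 library (adjusted p 0.0519 to 0.154). Without day 7 library 1 the count was 2 and the adjusted p of Psma2 was 0.0541. Day 7 libraries came from an experiment of their own, so experiment and time cannot be told apart. The summed neutrophil markers were 2890 to 22548 on day 7 and 7.72 to 875 untreated, and the summed erythroid markers 1598 to 3599 and 0 to 257. The 8 microglia markers summed to 38197 to 42464 and 38702 to 40428. The part of such other cells in the falls was not tested.

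**Figure D2:**
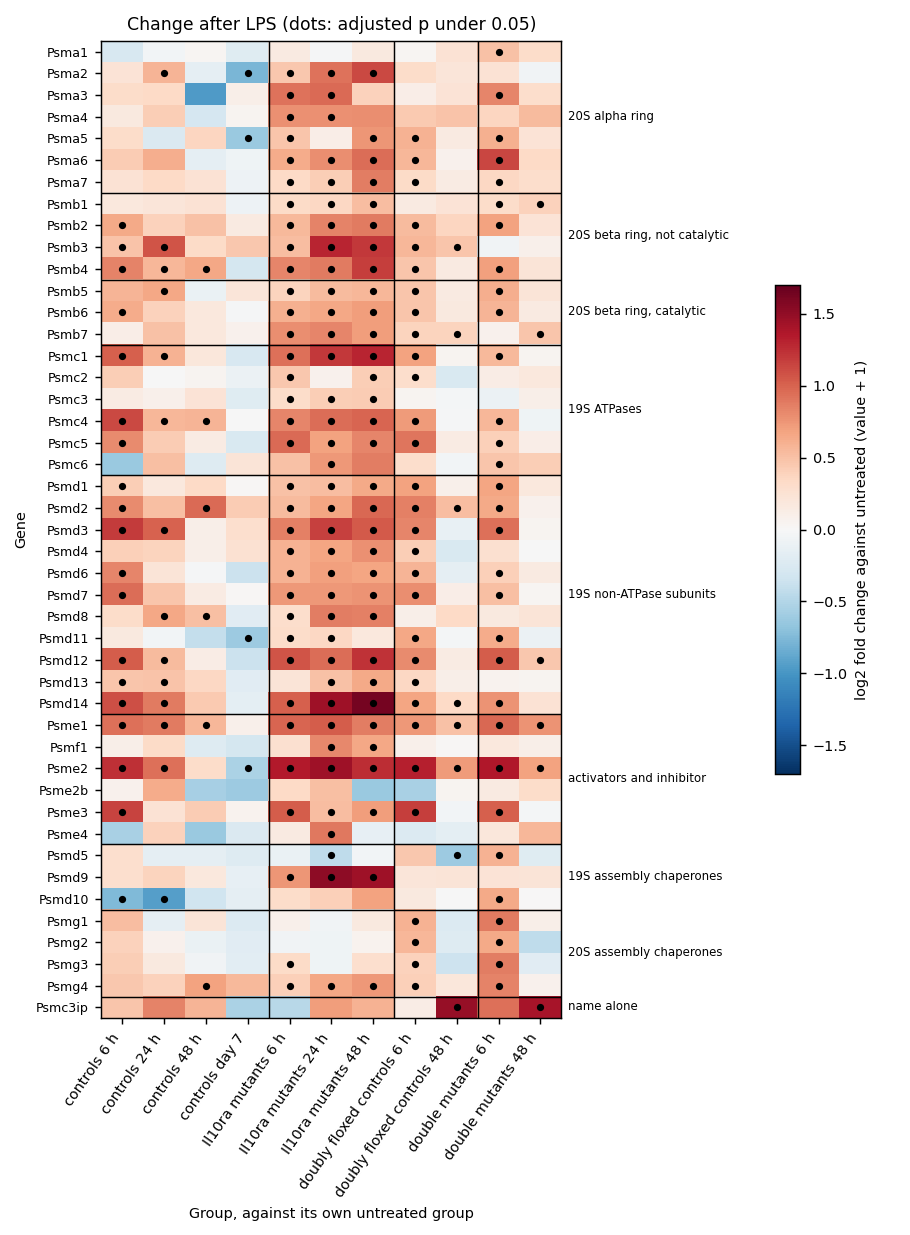
Log2 fold change on the value plus 1 scale of each of the 45 genes (rows, ordered by role) in each LPS group against the untreated group of the same genotype (columns); dots mark adjusted p under 0.05. The Il10ra mutant columns hold 34, 36 and 32 dots, and the controls' columns 19, 14, 6 and 4.

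In Il10ra mutants 34 of the 45 genes were called higher at 6 h, where 26.5% of all 11555 genes tested were, and 0 lower, where 28.6% were. At 24 h 35 were called higher and 1 lower (26% and 27.4% of all genes), and at 48 h 32 and 0 (17.7% and 17.9%). The medians over the 45 genes were 0.50, 0.69 and 0.73 at the 3 times. These 3 comparisons share the 9 untreated libraries. Among the libraries fitted together here, mutant libraries 4 and 5 at 48 h were alone in their experiment. Fold changes at 48 h thus rest, within that group, on libraries 1 to 3. At 24 h the calls took in 11 of 11 non-ATPase subunits, 5 of 6 ATPases, 4 of 4 and 3 of 3 beta-ring groups and 5 of 7 alpha-ring subunits. Of the core chaperones 1 of 4 was called higher at 24 h and at 48 h. The microglia markers summed to 31097 to 35430 in untreated mutants and to 18489 to 24311, 13689 to 15780 and 9313 to 15707 at 6, 24 and 48 h. The neutrophil markers summed to 4.22 to 599 untreated and to 88.9 to 4676, 102.3 to 1737 and 724 to 2623 at the 3 times. The part of either in the changes was not tested.

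Psmd14, the deubiquitinase of the lid that removes ubiquitin chains, had 49.5, 63.4 and 69.4 in untreated mutants and 103, 121 and 152 at 6 h (1.01 ± 0.13, adjusted p 1.1e-08). It had 160.0, 186, 181, 132.4 and 155.8 in libraries 1 to 5 at 24 h (1.45 ± 0.15, adjusted p 1.76e-11) and 159.9, 196, 181, 91.4 and 106.9 at 48 h (1.62 ± 0.19, adjusted p 2.06e-09). Every library after LPS lay above every untreated one, and at 48 h libraries 4 and 5 were the low ones. Psmd9, a chaperone of the ATPase ring, had 13.5, 19.6 and 29.4 untreated and 26.3, 35.9 and 45.5 at 6 h (0.75 ± 0.20, adjusted p 0.00123). It had 42.3, 63.7, 61.0, 83.4 and 70.9 at 24 h (1.53 ± 0.22, adjusted p 7.59e-08) and 47.9, 55.5, 44.9, 54.1 and 56.1 at 48 h (1.44 ± 0.28, adjusted p 5.03e-05). At 24 and 48 h it lay above all untreated libraries.

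Psme2 had 156.4, 211 and 269 in untreated mutants and 446, 489 and 567.6 at 6 h (1.35 ± 0.12, adjusted p 3.33e-13). It had 517, 619, 473, 508 and 602 at 24 h (1.44 ± 0.13, adjusted p 1.53e-12) and 525.6, 489, 741, 537 and 593 at 48 h (1.26 ± 0.17, adjusted p 9.33e-08). The values after LPS lay above the untreated range at all 3 times. Psmc1, an ATPase, had 70.7, 102.4 and 126.4 untreated and 170.1, 278, 280.0, 199.7 and 202 at 48 h (1.29 ± 0.17, adjusted p 3.79e-08). Psmd12, a lid subunit, had 68.1, 89.8 and 100.7 untreated and 166, 176 and 204 at 6 h (1.07 ± 0.11, adjusted p 1.51e-11). Psme3 had 42.8, 53.3 and 65.5 untreated and 94.4, 112.02 and 140.2 at 6 h (1.03 ± 0.12, adjusted p 5.52e-10). In none of the 3 did the groups overlap. Psmb6 had 169, 213 and 259.5 untreated and 259.9, 350.3 and 394 at 6 h (0.61 ± 0.11, adjusted p 7.23e-06), and 300.5, 295, 347, 353 and 324 at 48 h (0.71 ± 0.16, adjusted p 0.00029). The chaperone Psmd5 was the gene called lower at 24 h (-0.43 ± 0.18, adjusted p 0.0422), and without the libraries of low mitochondrial share 0 genes were called lower there.

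The other catalytic subunits were called higher in Il10ra mutants at each of the 3 times. Psmb5 had 49.6, 61.3 and 82.9 untreated and 61.3, 83.1 and 99.97 at 6 h (0.38 ± 0.15, adjusted p 0.0327). It had 72.7, 66.6, 115, 132.4 and 102.3 at 24 h (0.53 ± 0.17, adjusted p 0.00696) and 91.7, 94.5, 98.7, 79.9 and 74.3 at 48 h (0.56 ± 0.22, adjusted p 0.0394). Its ranges overlapped with the untreated one at each time. The 6 h call was lost with quantile normalization (adjusted p 0.0789), without the experiment term (adjusted p 0.0933) and without untreated library 3 or 6 h library 1, 2 or 4 (adjusted p 0.0536 to 0.0776). The 48 h call was lost with the replicate block (adjusted p 0.286) and without untreated library 4, 5 or 6 or 48 h library 1, 2 or 3 (adjusted p 0.0505 to 0.119). Psmb7 had 37.6, 50.2 and 68.6 untreated and 54.2, 79.2 and 119 at 6 h, with overlap (0.79 ± 0.15, adjusted p 2.17e-05). It had 71.7, 99.9, 83.5, 88.3 and 73.3 at 24 h (0.83 ± 0.17, adjusted p 4.62e-05) and 104, 88.6, 82.6, 71.0 and 91.0 at 48 h (0.71 ± 0.22, adjusted p 0.00763), above the untreated range at both times. With the replicate block the adjusted p at 48 h was 0.0544. Psme1 had 339, 414 and 483 untreated and 602, 859 and 1004 at 6 h, with no overlap (0.98 ± 0.12, adjusted p 1.01e-09).

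The doubly floxed genotypes were fitted in a table of their own. At 6 h in doubly floxed controls 30 of 45 were called higher and 0 lower (21.6% and 21.1% of all 11800 genes), with a median of 0.47, and in double mutants 31 and 0 (22.8% and 21.5%), with a median of 0.57. All 4 core chaperones were called in both. Within the experiments that held both groups, 18 and 7 were called (3 against 3 and 4 against 2 libraries). The share of all genes called in these smaller fits is not given, so the lower counts do not speak to the 45 genes in particular. The microglia markers summed to 35685 to 39889 untreated, 16896 to 20068 at 6 h and 22760 to 26614 at 48 h in doubly floxed controls, and to 33359 to 34989, 15497 to 19663 and 20493 to 25219 in double mutants. Their part in the changes was not tested. Of the 45 genes 16 were called higher at 6 h in all 4 genotypes, as were 13.5% of the 10907 genes tested in all 4: Psmb2, Psmb4, Psmb6, Psmc1, Psmc4, Psmc5, Psmd1, Psmd2, Psmd3, Psmd6, Psmd7, Psmd12, Psmd14, Psme1, Psme2 and Psme3. Psmc3ip, Psme2b, Psme4 and Psmf1 were called in none. Psme2b is by its name a copy of Psme2, and reads of near-identical copies may have been split between them.

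In doubly floxed controls Psme2 had 230.3, 246, 222, 84.6, 105 and 91.5 in untreated libraries 1 to 6 and 399, 494, 489, 297 and 321 in libraries 1 to 5 at 6 h (1.32 ± 0.15, adjusted p 1.99e-09). Libraries 1 to 3 of each group came from 1 experiment and the others from another, and the 6 h values lay above the untreated ones within each. Psmc5, an ATPase, had 89.5, 113.4 and 166 untreated and 200.4, 198, 185, 272 and 223 at 6 h (0.91 ± 0.13, adjusted p 2.43e-07). Psme3 had 42.2, 49.9 and 59.7 untreated and 121, 101.9, 119, 141 and 100.1 at 6 h (1.17 ± 0.15, adjusted p 5.07e-08). In both the groups did not overlap. In double mutants Psma6, an alpha-ring subunit, went from 75.4, 100.7, 85.8, 93.3 and 101.03 in libraries 1 to 5 to 162, 200.2 and 231 over 6 libraries (1.14 ± 0.14, adjusted p 1.03e-08). Psmd12 went from 66.4, 73.3, 91.6, 91.9 and 82.0 to 138.5, 162 and 185 (1.03 ± 0.12, adjusted p 7.46e-09), and Psme2 from 208, 232, 117, 124.5 and 101.03 to 331, 435 and 673 (1.36 ± 0.15, adjusted p 1.26e-09). All 3 were higher at 6 h in every library. Psmb5 was called in both genotypes (0.47 ± 0.16, adjusted p 0.0133, and 0.61 ± 0.16, adjusted p 0.0015), with overlapping ranges. Neither call held without the experiment term (adjusted p 0.103 and 0.0576) or within the shared experiment (adjusted p 0.163 and 0.327), and the former was lost without 6 h library 5 (adjusted p 0.0677). Psmb7 was called in doubly floxed controls (0.37 ± 0.15, adjusted p 0.0398) and not in double mutants (0.08 ± 0.15, adjusted p 0.713). Its call was lost with quantile normalization, without the experiment term, with the replicate block and within the shared experiment (adjusted p 0.124, 0.223, 0.0763 and 0.205), and without untreated library 3, 4 or 6 or 6 h library 2, 4 or 5 (adjusted p 0.0682 to 0.102).

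At 48 h doubly floxed controls had 7 genes called higher and 1 lower (13.8% and 9.83% of all genes) and double mutants 6 and 0 (11.2% and 6.86%), with medians of 0.13 and 0.18. Psme1 and Psme2 were called in both. Psme1 had 382, 442 and 477 untreated and 491, 590.5 and 777 at 48 h in doubly floxed controls (0.49 ± 0.11, adjusted p 0.000457). In double mutants it had 412, 373, 378, 430.0 and 438 untreated and 672, 654, 708 and 694 at 48 h (0.77 ± 0.12, adjusted p 1.02e-05). The groups did not overlap in either genotype. Psme2 had 272, 319, 362, 319, 177 and 209 in doubly floxed controls 2 to 7 (0.72 ± 0.14, adjusted p 0.000191) and 355, 354, 177 and 181 in double mutants 1 to 4 (0.68 ± 0.17, adjusted p 0.00284). These values overlapped with the untreated ones across experiments but not within them. Psmd2 (0.52 ± 0.19, adjusted p 0.0455) was called in doubly floxed controls, where Psmd5 was the gene called lower (-0.61 ± 0.21, adjusted p 0.026), and Psmb7 was called in both (0.38 ± 0.14, adjusted p 0.0481, and 0.47 ± 0.16, adjusted p 0.0431). The Psmd2 call was lost by edgeR (adjusted p 0.0723), by DESeq2 (0.0644), with the replicate block (0.235) and within the shared experiment (0.339). The Psmb7 call was lost in doubly floxed controls with no filter, with quantile normalization, without the experiment term, with the replicate block and within the shared experiment (adjusted p 0.0521, 0.0687, 0.33, 0.0813 and 0.0594). In double mutants it was lost under the last 4 of these (adjusted p 0.0723, 0.245, 0.0516 and 0.493). Without single libraries, the call of Psmb7 was lost in doubly floxed controls for each of 10 and in double mutants for 6 (untreated 1 and 5, and each 48 h library), that of Psmd2 for 8 and that of Psmd5 for 4 (untreated 2 and 3, 48 h 2 and 4). Psme2 in double mutants was not called within the shared experiment (0.65, adjusted p 0.101). Psmc3ip, which is no proteasome subunit, had the largest change in both (1.49 ± 0.37 and 1.40 ± 0.43), at 33.7 normalised reads or less. The 8 calls of doubly floxed controls became 4 without untreated library 2, and 5 without untreated library 4 or 6 or 48 h library 3, 4, 5 or 7.

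**Figure D3:**
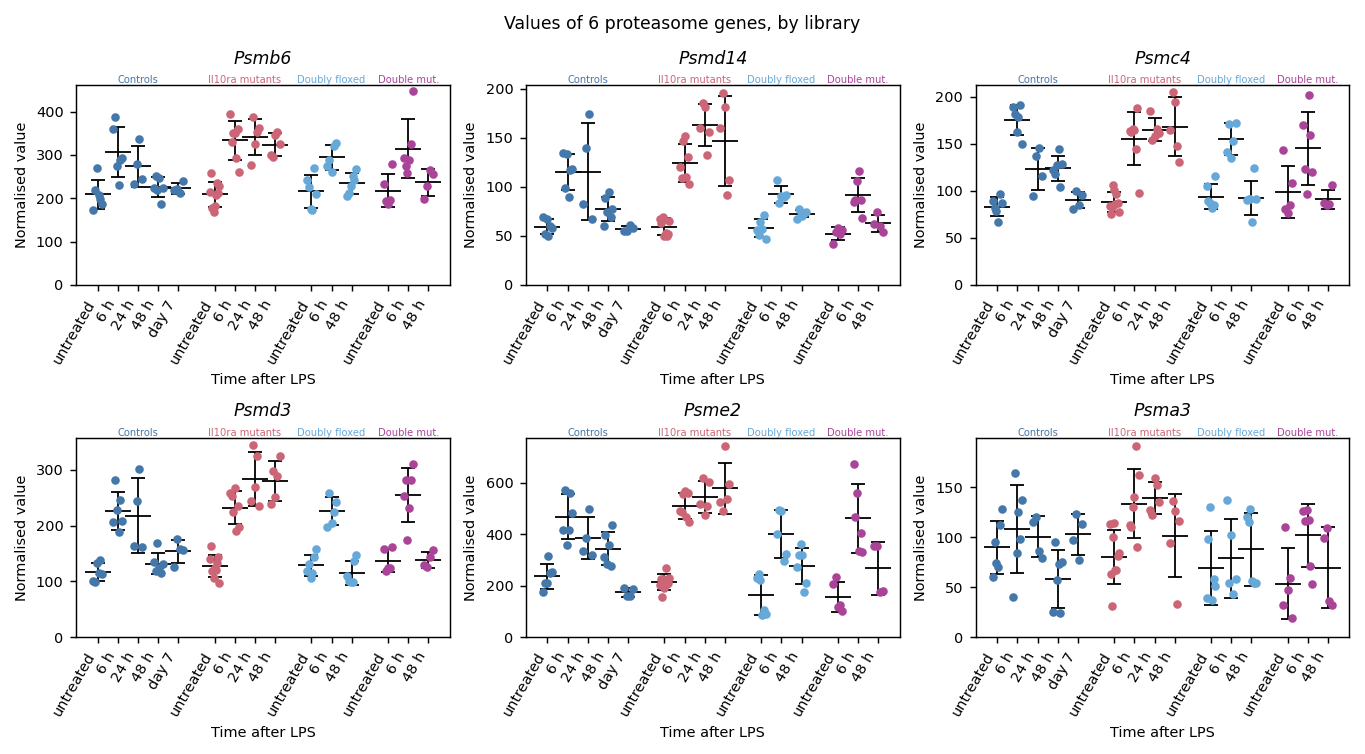
Normalised reads of 6 of the genes in each library (points), by genotype and time after LPS, with mean ± SD in black. Values of different genotype pairs come from separate tables: controls and Il10ra mutants share 1 table (day 7 is from the table of controls), doubly floxed controls and double mutants another. Psmd3 stays high at 48 h in Il10ra mutants, while doubly floxed controls and double mutants at 48 h are at 98.6 to 155.7.

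The next question was how the genes differed between genotypes at the same time. Untreated Il10ra mutants and controls differed in 0 of the 45 genes (0.00865% of all genes were called), with 2 at an unadjusted p under 0.05 and 0 called by edgeR and by DESeq2. At 6 h the count was again 0 (3.31% of all genes), with 7 at an unadjusted p under 0.05 and 0 by edgeR and DESeq2. Without control 6 h library 2 it was 2, and without control 6 h library 6 or mutant 6 h library 6 it was 1. At 24 h 2 of the 45 were called higher in mutants, Psmd14 (0.68 ± 0.17, adjusted p 0.0218) and the lid subunit Psmd6 (0.50 ± 0.15, adjusted p 0.0451), where 1.11% of all genes were called higher and 2.4% lower. Psmd14 had 139, 174, 82.4 and 67.3 in controls and 160.0, 186, 181, 132.4 and 155.8 in mutants, and Psmd6 115, 117, 99.9 and 83.1 and 131, 145, 136, 152 and 155.8. The groups overlapped in Psmd14 and not in Psmd6. Psme2 missed the threshold at 24 h (0.51, adjusted p 0.053) and passed it without the libraries of low mitochondrial share (0.54, adjusted p 0.0348), by DESeq2 (adjusted p 0.0292), and without control library 2 (0.00805) or mutant library 1 (0.0294). The count at 24 h was 0 without control library 3 or 4 or mutant library 2, 3 or 5, 1 without mutant library 4, 5 and 10 without control libraries 1 and 2, and 6 without mutant library 1. It was 0 within the shared experiment.

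At 48 h 26 of the 45 genes were called higher in Il10ra mutants than in controls and 0 lower, where 12.7% of all genes were called higher and 15.2% lower. The median log2 fold change was 0.48, and all 45 values were above 0, from 0.14 to 1.21. By role the calls were 5 of 7 alpha-ring subunits, 2 of 4 other beta-ring subunits, 2 of 3 catalytic subunits, 4 of 6 ATPases and 9 of 11 non-ATPase subunits. They were 1 of 3 cap chaperones, 3 of 6 activators and inhibitors and 0 of 4 core chaperones. The 6 control libraries and mutant libraries 1 to 3 came from the same experiment. Mutant libraries 4 and 5 came from the experiment of the double mutants. No other library fitted with them shares it, so the experiment term took up libraries 4 and 5. Fold changes of Il10ra mutants against controls at 48 h thus rest on mutant libraries 1 to 3, though all 5 values are printed. Within the shared experiment 25 were called higher, but the same libraries set both fits, so this is no separate check. The share of all genes called there is not given. Leaving out mutant library 2 gave 17 called higher.

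Psmd14 had 60.6, 75.5 and 94.7 in controls at 48 h and 159.9, 196, 181, 91.4 and 106.9 in mutants (1.21 ± 0.18, adjusted p 8.37e-07). Mutant library 4 lay within the control range and the other 4 above it. Psma3, an alpha-ring subunit, had 24.1, 65.6 and 95.3 in controls and 94.7, 137, 127, 32.8 and 117 in mutants, where libraries 1 and 4 lay within the control range (1.18 ± 0.36, adjusted p 0.0105). Psmc6, an ATPase, had 39.1, 62.3 and 91.7 in controls and 110.002, 172, 131.6, 101.2 and 109.9 in mutants, with no overlap (1.10 ± 0.36, adjusted p 0.017). Without mutant library 2 the adjusted p was 0.0682 for Psma3 and 0.118 for Psmc6. Psmd9 had 18.3, 21.5 and 33.6 in controls and 44.9 to 56.1 in mutants, with no overlap (1.04 ± 0.26, adjusted p 0.00199).

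Psmd3 had 115, 127.9 and 169 in controls and 238, 297, 252, 288 and 325 in mutants at 48 h (0.99 ± 0.16, adjusted p 7.12e-06). Psmd12 had 92.4, 108.5 and 125.8 in controls and 154, 256, 222, 163 and 161 in mutants (0.93 ± 0.15, adjusted p 3.09e-06), and Psme2 277, 334 and 435 and 489 to 741 (0.77 ± 0.16, adjusted p 0.000281). In all 3 genes the mutant libraries lay above the control libraries. Psmb6 had 187, 225 and 252 in controls and 295 to 353 in mutants, with no overlap (0.48 ± 0.15, adjusted p 0.0105). Without mutant library 3 the adjusted p of Psmb6 was 0.0802. Psmb5 was called (0.58 ± 0.20, adjusted p 0.0259), though not without control library 4 or 5 or mutant library 1, 2 or 3 (adjusted p 0.051 to 0.0886), whereas Psmb7 (0.43 ± 0.20, adjusted p 0.102) and Psme1 (0.34 ± 0.16, adjusted p 0.102) did not pass the test. Without control library 6 Psmb7 passed (adjusted p 0.0429), and without mutant library 2 Psme1 did (adjusted p 0.0142). The 8 microglia markers summed to 22604 to 28032 in controls and 9313 to 15707 in mutants at 48 h, and the neutrophil markers to 182 to 1024 and 724 to 2623. Monocyte markers summed to 75.2 to 207 and 23.0 to 155.8. The part of either in the differences was not tested. Cx3cr1, whose locus drives the Cre, is 1 of the 8 microglia markers. Before LPS it averaged 5134 in controls and 2436 in mutants (normalised with the C57BL/6 libraries), so the sums differ by genotype through it too.

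The difference between the 48 h responses (mutants against their untreated group, minus controls against theirs) was tested after the data had been seen. It too rests on mutant libraries 1 to 3 at 48 h. It was called higher for 16 of the 45 genes and lower for 0, where 6.74% of all genes were called higher and 9.64% lower, with a median of 0.53. The largest differences were those of Psmd9 (1.40 ± 0.33, adjusted p 0.00205), Psma3 (1.38 ± 0.45, adjusted p 0.0283), Psma2 (1.23 ± 0.22, adjusted p 0.000104) and Psmd14 (1.16 ± 0.22, adjusted p 0.000235).

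**Figure D4:**
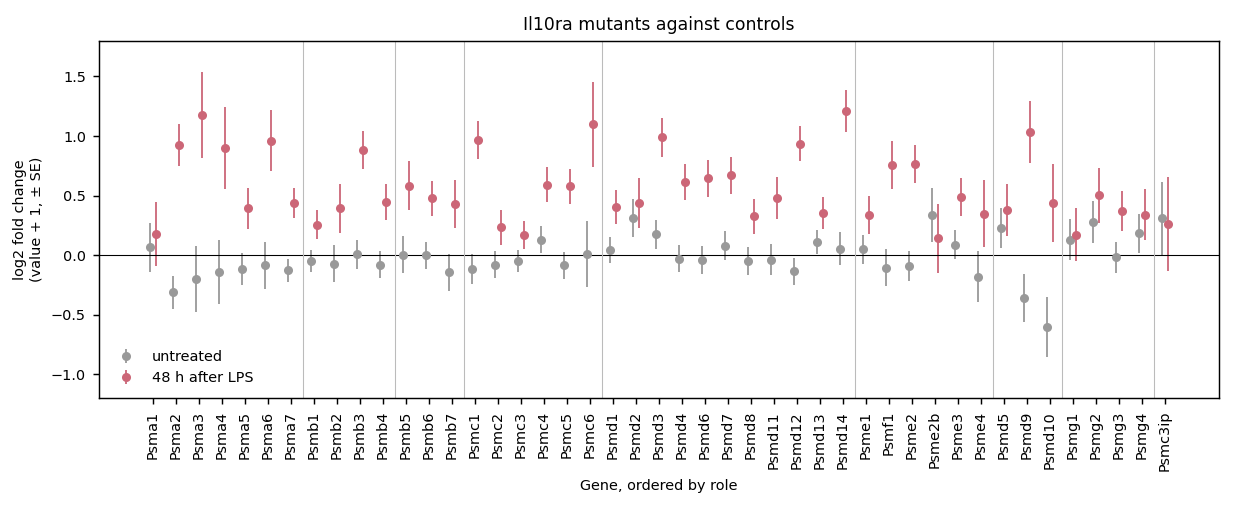
Log2 fold change (value plus 1 scale, ± SE) of Il10ra mutants against controls for each of the 45 genes, ordered by role, in untreated microglia (grey) and at 48 h after LPS (red). The 48 h values are all above 0, between 0.14 and 1.21, and the untreated ones lie between -0.60 and 0.34.

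Double mutants were compared with doubly floxed controls in 3 comparisons, and 0 of the 45 genes were called in any of them. Of all genes 0.0254% were called untreated, 0.0678% at 6 h and 0.0169% at 48 h. At an unadjusted p under 0.05 there were 8, 10 and 2 of the 45, and edgeR called 0 in each. DESeq2 called 1 at 6 h and 0 at the other times. The medians were -0.02, 0.01 and 0.01. The test of the difference between the 48 h responses of these 2 genotypes called 0 of the 45, with 2 at an unadjusted p under 0.05 and a median of 0.06, where 0% of all genes were called. edgeR and DESeq2 were not run on it.

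Il10ra mutants at 48 h were also compared with doubly floxed controls and with double mutants, within the table that held all 3. Both comparisons share the mutant libraries and rest, within experiments, on mutant libraries 4 and 5, which the comparison with IL10Rafl/fl controls did not rest on. Against doubly floxed controls 21 of the 45 were called higher and 0 lower (16.6% and 17.3% of all genes), with a median of 0.45 and 37 values above 0. By role, 8 of 11 non-ATPase subunits (median 0.64) but 2 of 7 alpha-ring subunits were called. The alpha-ring values had a median of -0.06 and ran from -0.67 to 0.62. Against Il10ra mutants 17 were called lower in double mutants and 0 higher (13.7% and 14.9%), with a median of -0.48 and 9 values above 0. Of the alpha-ring subunits 1 of 7 was called lower there, with a median of 0.04. Without mutant library 5 the counts were 9 and 7, and without mutant library 4 the former was 12.

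Psmd3 had 98.6, 105.6 and 148.3 in doubly floxed controls, 130.3, 125, 143 and 155.7 in double mutants and 249, 313, 264, 301 and 340.0 in Il10ra mutants at 48 h. The first 2 groups overlapped and the mutants lay above both. The log2 fold change was 1.55 ± 0.17, adjusted p 2.53e-09, against doubly floxed controls, and -1.32 ± 0.18, adjusted p 4.02e-07, for double mutants against Il10ra mutants. Psmd9 had 20.2, 22.4 and 26.7 in doubly floxed controls, 15.5, 26.5, 23.4 and 32.7 in double mutants and 50.03, 58.4, 47.0, 56.4 and 58.6 in Il10ra mutants, again apart (1.44 ± 0.28, adjusted p 9.8e-05, and -1.46 ± 0.30, adjusted p 0.000261). Psmg4 had 58.5, 61.2, 84.8, 135 and 145 in Il10ra mutants, with libraries 4 and 5 the high ones. Doubly floxed controls had 49.0, 60.4 and 111.3 and double mutants 63.6, 43.7, 92.2 and 90.3. The fold changes of Psmg4 with the experiment term were 1.30 ± 0.22, adjusted p 9.53e-06, and -1.42 ± 0.23, adjusted p 1.05e-05. Without that term they were 0.40 and -0.37 (adjusted p 0.304 and 0.41). Psmb6 had 206, 236 and 268 in doubly floxed controls, 197, 228, 266 and 257 in double mutants and 310.3 to 368 in Il10ra mutants, above both (0.66 ± 0.17, adjusted p 0.00184, and -0.68 ± 0.18, adjusted p 0.00318). Without mutant library 4 the adjusted p of the latter was 0.0509. Psme2 had 515 to 776 in Il10ra mutants, against 177 to 362 in doubly floxed controls (0.86 ± 0.20, adjusted p 0.00107) and 177 to 355 in double mutants (-0.81 ± 0.22, adjusted p 0.00451), and the latter adjusted p was 0.0752 without mutant library 5. The 8 microglia markers summed to 22760 to 26614 in doubly floxed controls, 20493 to 25219 in double mutants and 9792 to 16416 in Il10ra mutants. Their part in the differences was not tested. Cx3cr1, whose locus drives the Cre in both mutant genotypes, is 1 of the 8.

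Genes that act with the proteasome outside the rule were read from lists. The immunoproteasome subunits were not called in controls at 6 h (0 of 3), with Psmb8 at 0.30 ± 0.18, adjusted p 0.201, Psmb9 at -0.16 ± 0.18, adjusted p 0.498, and Psmb10 at 0.38 ± 0.17, adjusted p 0.0732. In mutants at 48 h Psmb10, which takes the place of Psmb7, had 489.9, 484, 572, 679.8 and 679 against 337, 372 and 460.3 in controls, with no overlap (0.44 ± 0.17, adjusted p 0.0445). Psmb9, which takes the place of Psmb6, had 125, 47.0, 106.7, 66.6 and 66.7 against 81.2, 125 and 155 (-0.50 ± 0.20, adjusted p 0.0517), and Psmb8 differed by -0.04 ± 0.17, adjusted p 0.909. The Psmb9 ranges overlapped. Against doubly floxed controls Psmb10 was higher (1.25 ± 0.19, adjusted p 1.5e-06) and Psmb9 lower (-1.14 ± 0.25, adjusted p 0.000449) in mutants. That comparison rests on mutant libraries 4 and 5, and the one with controls on mutant libraries 1 to 3. Psmb8 was higher at 48 h than untreated in doubly floxed controls (0.55 ± 0.11, adjusted p 0.000126) and in double mutants (0.55 ± 0.12, adjusted p 0.00111).

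Nfe2l1, the transcription factor that raises subunit genes, was called higher at 6 h in all 4 genotypes. The log2 fold changes were 1.03 ± 0.20, adjusted p 0.000127 in controls and 1.11 ± 0.14, adjusted p 2.62e-09 in Il10ra mutants. They were 1.24 ± 0.15, adjusted p 7.36e-09 in doubly floxed controls and 1.16 ± 0.15, adjusted p 3.88e-08 in double mutants. At 48 h it had 71.3, 101.4, 103, 179 and 184 in mutants and 58.2, 75.5 and 84.3 in controls. Mutant libraries 4 and 5 were the high ones, and the fold change rests on libraries 1 to 3 (0.32 ± 0.18, adjusted p 0.19). Comparisons with the doubly floxed genotypes rest on mutant libraries 4 and 5 instead. Against doubly floxed controls the difference was 1.20 ± 0.20, adjusted p 1.16e-05, and in double mutants against Il10ra mutants -1.29 ± 0.22, adjusted p 1.6e-05. Of the 6 genes of the Nfe2l1 pathway tested, 1 was called higher in controls at 6 h and 0 lower, where 20.4% and 21.1% of all genes were.

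Of 9 partners of the proteasome tested in controls, 3 were called higher and 1 lower at 6 h, where 20.4% and 21.1% of all genes were. Zfand5, a zinc-finger protein that stimulates the proteasome, changed by 2.47 ± 0.25, adjusted p 7.95e-09, and Usp14, a deubiquitinase of the cap, by 0.99 ± 0.25, adjusted p 0.00177. Akirin2, which brings proteasomes into the nucleus, changed by -1.87 ± 0.22, adjusted p 7.85e-08. In mutants at 48 h Zfand5 had 435, 404, 417, 238 and 302 against 101.5, 173 and 209 in controls (1.42 ± 0.21, adjusted p 7.58e-07). Akirin2 had 69.3, 45.9, 44.9, 40.8 and 37.9 against 87.1, 116.2 and 127 (-1.08 ± 0.21, adjusted p 8.16e-05). In neither gene did the groups overlap. Of the 13 genes for ubiquitin, its activation and its shuttle factors, 5 were called higher and 1 lower in controls at 6 h, and 5 and 0 in mutants against controls at 48 h, where 12.7% and 15.2% of all genes were.

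**Figure D5:**
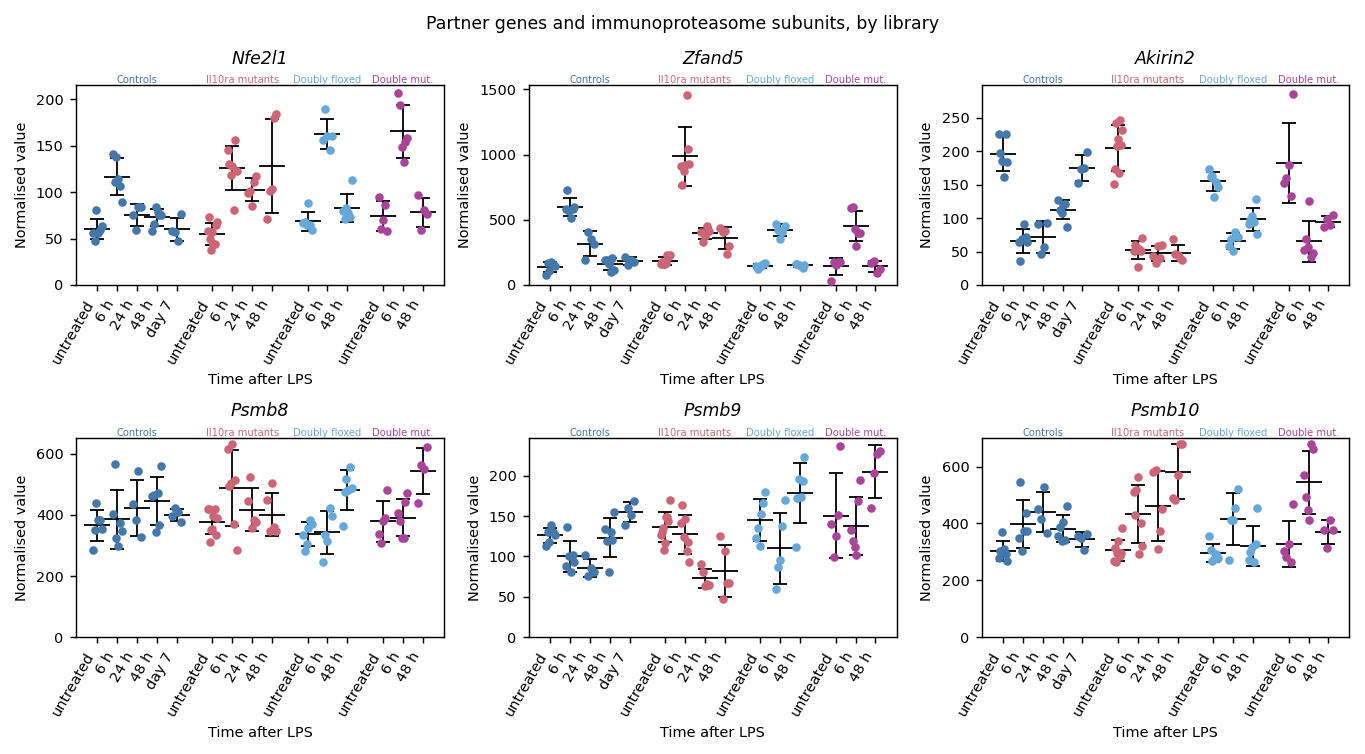
Normalised reads in each library (points) of 3 partner genes (Nfe2l1, Zfand5, Akirin2) and the 3 immunoproteasome subunits (Psmb8, Psmb9, Psmb10), by genotype and time after LPS, with mean ± SD in black and the tables as in the plot of 6 proteasome genes. Zfand5 is high at 6 h in each genotype, and Akirin2 is low.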

How the data were processed

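The values are signal: reads per gene divided by 1 size factor per library, made by the authors and deposited in 4 tables, mapped to mm10 per the submitters' processing notes. Aligner, counting step and size factor method were not given in the sources used here. Each column divided by what 1 read is worth gave whole reads for 100% of values (within 0.01), and the share of reads and the depth rest on these. Rows with a blank name (1, 1, 0 and 0 per table) and gene names turned into dates (17, 18, 18 and 17) were left out. The table of controls and the table of controls with Il10ra mutants share 22 control libraries. Values were compared within a table. The 20 libraries of chromatin accessibility were not used.

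Fold changes are on the log2(value + 1) scale, fitted with limma 3.58.1 (R 4.3.3, trend) on genes that reached a value of 5 in as many libraries as the smallest group has, with the experiment (read from the library names) as an additive term. P-values were adjusted by Benjamini-Hochberg over all genes tested, with a threshold of 0.05. On simulated data for controls at 6 h (11103 genes) the test recovered 80 of 100 genes changed by 2-fold and 100 of 100 changed by 4-fold, with 10 false calls. The changed genes were drawn only from those of higher mean reads. All genes had the same simulated dispersion, and no difference between experiments was put in. The figures thus do not speak to genes of few reads, to changes under 2-fold or to differences between experiments. Alternatives were edgeR 4.0.16 and DESeq2 1.42.0 on the recovered reads, a pseudocount of 5, no filter, quantile normalization, no experiment term, the shared experiment alone, a replicate block and each library left out. Same-numbered libraries deviated together in all 5 pairs of doubly floxed controls at 6 h and untreated (r 0.131 to 0.226, each pair in 1 experiment), and the block gave 26 calls there.

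The members and lists were chosen with earlier results of these data known. Genes were picked for naming by rule: Psmb5, Psmb6, Psmb7, Psme1 and Psme2, and the 3 or 4 called genes of largest change with a mean of at least 20 in 1 of the groups. Not every time and genotype is given for each.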

Additional observations from a re-analysis of the deposited data

Results flagged for a closer look

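In 24 of 432 groups of 4 to 10 libraries, tested for 26 named genes and the read share, 1 library stood apart from the others of its group by Dixon's criterion. Chance alone marks about 1 group in 20, and no explanation was tested. Values are normalised reads, with the range of the rest of the group. Among untreated control libraries Psmd2 was 64.7 in library 1 (the others 29.7 to 38.6) and Psmd9 was 42.3 in library 3 (the others 19.7 to 28.0). Among control 6 h libraries Psme3 was 105 in library 2 (the others 145 to 152). Among control 24 h libraries Psme1 was 1122 in library 2 (the others 711 to 759). Among control 48 h libraries Psmd3 was 183 in library 3 (the others 124.2 to 145). Among control day 7 libraries Psmd6 was 115 in library 4 (the others 64.8 to 71.3). Among untreated Il10ra mutant libraries Psmb3 was 113.3 in library 9 (the others 74.2 to 92.9) and Psmb4 was 351 in library 9 (the others 206 to 275). Among Il10ra mutant 6 h libraries Psmc5 was 134.3 in library 7 (the others 165 to 186). Among Il10ra mutant 48 h libraries Psma2 was 204 in library 3 (the others 139 to 153). Among doubly floxed control 6 h libraries Psmd5 was 58.6 in library 4 (the others 32.1 to 38.002). Among doubly floxed control 48 h libraries Psmb5 was 109.6 in library 7 (the others 67.8 to 78.7) and Psmd12 was 152 in library 7 (the others 95.6 to 115). Among untreated double mutant libraries Psma5 was 80.6 in library 4 (the others 60.04 to 65.5), Psmc1 was 135 in library 1 (the others 91.9 to 104) and Psmc5 was 166 in library 3 (the others 114.1 to 126.1). Among double mutant 6 h libraries Psma2 was 74.7 in library 4 (the others 114.1 to 136), Psmb4 was 391 in library 3 (the others 511 to 583) and Psmb6 was 447 in library 6 (the others 258 to 326). Among double mutant 6 h libraries Psmd11 was 118 in library 2 (the others 67.1 to 78.9), Psmd2 was 144.2 in library 6 (the others 77.2 to 101.8) and Psme1 was 922 in library 6 (the others 729 to 795). Among double mutant 48 h libraries Psma6 was 104 in library 1 (the others 115.6 to 117) and Psmc4 was 106.1 in library 4 (the others 84.8 to 87.0). The 48 h responses of Il10ra mutants and controls differed, by a test of the difference itself (limma), in 16 of the 45 genes, all larger in mutants. Named here beyond the report, they include Psmd12 (1.07 ± 0.18, adjusted p 4.89e-05) and Psme2 (0.86 ± 0.20, adjusted p 0.00232).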

How the results depend on the processing

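Over 2825 recomputed values of the named genes, 2672 kept direction and side of the threshold, 131 lost the call, 22 gained one and 0 reversed. Counts of called genes moved by over 1.5 times as follows, and the cause was not tested. The share of all genes called under each setting is not given here. These counts alone thus do not tell a general change in calls from one in these genes. Without the experiment term the count was 29 in controls at 6 h, 2 on day 7, 3 in double mutants at 48 h and 0 for Il10ra mutants against controls at 24 h. Within the shared experiment it was 4 and 10 in controls at 24 and 48 h, 0 for mutants against controls at 24 h, 18 in doubly floxed controls at 6 h, and 7 and 1 in double mutants at 6 and 48 h, with fewer libraries each. Day 7 has no such value. For mutants against controls at 24 h DESeq2 gave 6, edgeR 1 and quantile normalization 1, and DESeq2 gave 1 for double mutants against doubly floxed controls at 6 h. With the replicate block the count was 1 for mutants against controls at 6 h, 5 in doubly floxed controls at 48 h and 8 for double mutants against Il10ra mutants, and it moved no other count by as much. Same-numbered libraries deviated together in every pair (r over 0.1) for doubly floxed controls at 6 h only. Elsewhere some did (4 of 5 pairs for untreated double mutants against doubly floxed controls) and many pairs shared an experiment, and the numbers were not taken as pairs.

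Leaving out single libraries gave 14 to 19 calls in controls at 6 h, 9 to 18 at 24 h, 2 to 7 at 48 h and 2 to 4 on day 7. Il10ra mutants gave 31 to 35, 33 to 37 and 29 to 32 at 6, 24 and 48 h. Mutants against controls gave 0 to 0 untreated, 0 to 2 at 6 h, 0 to 10 at 24 h and 17 to 27 at 48 h. Doubly floxed controls gave 24 to 30 and 4 to 8, and double mutants 28 to 33 and 4 to 6, at 6 and 48 h, and the comparisons of these genotypes 0 to 0. Mutants against doubly floxed controls gave 9 to 21 and double mutants against mutants 7 to 18. Depth of 540642 to 2489084 reads limits the genes of few reads, such as Psmc3ip and Psmd10.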

Other observations

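The 48 h library left out of the comparisons had 1930004 reads, of which 0.516% fell on the 45 genes. In the table of untreated libraries the 4 C57BL/6 libraries had 37.8 to 49.5 normalised reads for Psmb5, 217 to 252 for Psmb6, 44.9 to 69.4 for Psmb7, 487 to 572 for Psme1 and 162 to 197 for Psme2, and their read shares were 0.441% to 0.459%.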
